A study of Rattus norvegicus with 70 samples.

Results

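Skeletal muscle of air-exposed male rats was set against 5 other tissues of air-exposed rats, namely lung, liver, adrenal gland, hypothalamus and adipose tissue. The rats were of the inbred Wistar-Kyoto strain, and the air exposure lasted 4 h, as did the 0.8 ppm ozone exposure of the remaining animals. The muscle group was chosen by its tissue and exposure labels alone and held 6 libraries, air 2, 3, 4, 7, 9 and 11, of the 68 libraries analysed. The other air groups held 6 lung, 6 liver, 5 adrenal, 6 hypothalamus and 5 adipose libraries, 28 in all. The ozone libraries, 5 of muscle and 34 over all tissues, were used to repeat the comparison. The labels give neither the muscle that was sampled nor the age of the rats. They also do not say that the libraries came from separate rats, so the p-values below reflect library-to-library spread, which may be technical.

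Skeletal muscle fibres contract when thin filaments of actin slide along thick filaments of myosin inside repeating units called sarcomeres. A nerve impulse opens channels of the fibre membrane, calcium leaves the sarcoplasmic reticulum through the ryanodine receptor, and troponin on the thin filament passes the calcium signal on. Energy comes from phosphocreatine, stored glycogen, glycolysis and mitochondria, in proportions that differ between slow and fast fibres. Many of the proteins involved have a muscle form encoded by a gene of its own, beside related forms used by other cells.

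Levels are given in CPM, the share of a library's reads that fell to a gene, times 1000000 and not per length, so they compare libraries and not genes. Differences are muscle minus another tissue on the log2(CPM + 1) scale, given ± the standard error, with Benjamini-Hochberg adjusted p-values from limma over all genes tested. A gene is called higher in muscle when, against each of the 5 tissues, its adjusted p is under 0.05 and its log2 difference is at least 2, a 4-fold difference, and it is called lower by the mirrored rule. The nearest tissue is the one of the 5 whose mean lies closest to muscle, and the margin is the difference from it. Tissues were extracted with different kits and normalised by the authors in separate tables, so differences of extraction and of tissue cannot be told apart, and only large differences are described. In bulk tissue, fewer cells of a type and less RNA per cell cannot be told apart either.

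Muscle libraries held 14402574 to 18707084 reads, and the other air libraries 8854272 to 18848151. The 17 skeletal fibre markers present in the tables summed to 117600 to 195000 CPM in muscle (11.8 to 19.5% of reads), and all 17 were called higher there by the rule above. Of the 14 tested cardiac markers 1 was called higher in muscle (7.14%, beside 2.01% of all tested genes), Sbk2, at 56.0 to 109 CPM. Others ranged from Ryr2 at 64.6 to 81.4 CPM, Actc1 at 20.6 to 66.5 CPM and Myh6 at 9.24 to 31.03 CPM down to the atrial genes Myl7 and Nppa, at most 0.0694 and 0.139 CPM in muscle. The fibre markers were not at 0 elsewhere. They summed to 18860 CPM in adipose air 2 and 3240 CPM in adipose air 5, to 244 to 1128 CPM in the other 3 adipose libraries, to 70.7 to 137 CPM in lung, 111 to 139 CPM in hypothalamus, to a median of 16.4 CPM in adrenal and 4.14 to 10.2 CPM in liver. Heart markers summed to 178 to 292 CPM in muscle, against 567 CPM in lung air 1, 865 CPM in lung air 2 and 96.9 to 133 CPM in the other 4 lung libraries, 161 to 229 CPM in hypothalamus, 25.4 to 91.2 CPM in liver, 9.79 to 15.1 CPM in adrenal and 8.80 to 19.1 CPM in adipose tissue. Hepatocyte markers summed to 30.4 to 75.8 CPM in muscle, 193 to 2450 CPM in lung, 200.3 to 3583 CPM in adrenal, 577 to 2485 CPM in hypothalamus and 2556 to 5227 CPM in adipose tissue. That list shares Pck1 with the list of adipocyte markers.

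Muscle was higher than all 5 tissues for 313 of the 15554 genes tested (2.01%) and lower than all 5 for 71 (0.456%). Among the 313, the 6 muscle libraries lay above all 28 other libraries for 309, and among the 71 they lay below all 28 for 70. Over all genes tested, 548 had muscle libraries wholly above the others and 1331 wholly below. Of the 313, 92 passed the filter on low values only through muscle, among 129 such genes tested. The muscle mean of such genes had to lie above the mean of the other libraries, though this alone did not give a call. The median margin was 3.92 for the genes called higher and -2.40 for those called lower. The genes called higher took 32.1 to 41.8% of the reads of a muscle library (median 36.1%), against 0.211 to 3.72% in the other libraries, the highest share being in adipose tissue. Adipose tissue was the nearest tissue for 172 of the 313, hypothalamus for 65, lung for 49, adrenal for 20 and liver for 7. Without adipose air 2 and 5, 314 genes were higher and 72 lower, and 312 of the 313 and all 71 were shared. Under TMM scaling, which matches the bulk of genes between libraries, 455 were higher and 16 lower, with 311 of the 313 and all 16 among the first calls. The share of higher among all calls was thus larger under TMM, and the count of lower calls depended on the scaling.

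Just inside the threshold lay Sspn at 2.00, RGD1306148 at 2.02 and Synm at 2.04, and just outside lay Ubac1 at 2.00, Clip4 at 1.99 and Tbx1 at 1.99. On the lower side Spg21 and Erp29 at -2.01 and Smim14 at -2.02 were inside, and Fah at -1.99 and Mx2 at -1.99 were outside.

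**Figure D1:**
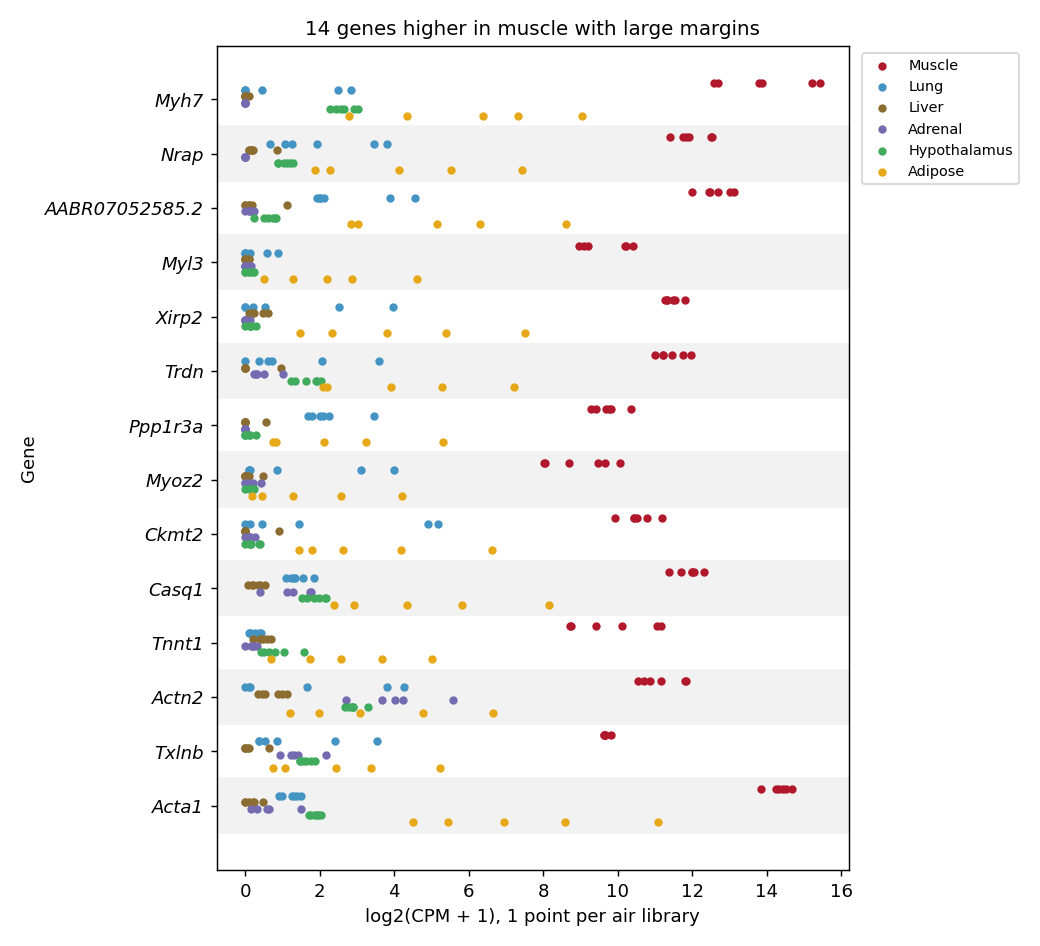
Of the 15 genes called higher in muscle with the largest margins, 14 are drawn, as log2(CPM + 1) in each air library, with tissues separated by colour and muscle drawn uppermost within each gene. The 6 muscle points of each gene lie to the right of all 28 others, and the adipose points spread furthest toward them, to 526 CPM for Myh7 in adipose air 2.

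The start regions of genes with large margins are shown because muscle genes are classically switched on through short sequence motifs near their start sites, bound by MEF2, by serum response factor (the CArG box) and by the myogenic factors (the E box). Of the 15 genes with the largest margins, 11 had a promoter in the RefSeq table of assembly GRCr8, and 5 of these held a CArG box or a MEF2 site in the 250 bases before the start. They are Myl3 (chr8:119616844-119617093, plus strand), Xirp2 (chr3:72533936-72534185, plus strand), Ppp1r3a (chr4:43946237-43946486, minus strand), Myoz2 (chr2:213852779-213853028, minus strand) and Acta1 (chr19:68784195-68784444, minus strand). Each is written 5′ to 3′ on the gene's strand, and the capitals mark the CArG box in Myl3 and Acta1 and the MEF2 site in Xirp2, Ppp1r3a and Myoz2.
Myl3: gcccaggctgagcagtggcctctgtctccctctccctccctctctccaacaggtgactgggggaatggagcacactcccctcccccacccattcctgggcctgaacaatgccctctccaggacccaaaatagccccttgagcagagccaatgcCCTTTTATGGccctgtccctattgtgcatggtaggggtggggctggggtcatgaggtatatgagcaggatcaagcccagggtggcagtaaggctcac
Xirp2: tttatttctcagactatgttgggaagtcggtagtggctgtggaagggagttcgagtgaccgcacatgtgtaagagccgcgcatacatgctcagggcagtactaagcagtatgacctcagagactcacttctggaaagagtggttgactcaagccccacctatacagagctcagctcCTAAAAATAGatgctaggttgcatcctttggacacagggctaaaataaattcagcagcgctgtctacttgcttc
Ppp1r3a: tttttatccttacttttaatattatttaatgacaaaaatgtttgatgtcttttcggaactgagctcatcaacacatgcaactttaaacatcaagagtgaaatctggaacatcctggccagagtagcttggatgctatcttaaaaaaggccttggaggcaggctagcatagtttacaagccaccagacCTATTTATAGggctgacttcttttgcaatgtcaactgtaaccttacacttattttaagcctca
Myoz2: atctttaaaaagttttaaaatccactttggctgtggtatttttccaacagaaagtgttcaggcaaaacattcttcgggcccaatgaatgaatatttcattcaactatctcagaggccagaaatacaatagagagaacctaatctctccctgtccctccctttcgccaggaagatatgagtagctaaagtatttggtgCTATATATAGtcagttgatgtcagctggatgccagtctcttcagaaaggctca
Acta1: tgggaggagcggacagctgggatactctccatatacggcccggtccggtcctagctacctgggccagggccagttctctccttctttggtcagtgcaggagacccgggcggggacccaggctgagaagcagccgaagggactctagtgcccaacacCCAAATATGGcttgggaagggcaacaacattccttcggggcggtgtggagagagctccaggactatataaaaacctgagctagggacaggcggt
The CArG box lies 97 to 88 bases before the start in Myl3 and 94 to 85 in Acta1. The MEF2 site lies 74 to 65 bases before it in Xirp2, 63 to 54 in Ppp1r3a and 53 to 44 in Myoz2. Searched on both strands, the MEF2 site was present in 34 of the 230 genes called higher that had a promoter (14.8%), in 2 of 53 called lower (3.77%), in 171 of the 11412 tested with a promoter (1.5%) and in 3.07% of the 27457 promoters of the table. The E box, CANNTG, was present in 176 of the 230 (76.5%), 31 of the 53 (58.5%) and 6579 of the 11412 (57.6%). The CArG box was present in 5 of the 230 (2.17%), 0 of the 53 and 1.17% of the 11412. Median GC content of the windows was 57.2% for the genes called higher, 63.2% for those called lower and 59.6% for all tested, and its part in these shares was not tested. These matches describe letters in a window of another assembly than the files' rn6 and say nothing of binding.

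Of 10 tested myosin heavy chains, the motors of the thick filament, 4 were higher in muscle than in all 5 other tissues. Of the 10, 2 passed the filter on low values only through muscle. Myh7, the slow heavy chain that the heart also uses, was at 38430, 6181, 44180, 14330, 15160 and 6638 CPM in muscle air 2, 3, 4, 7, 9 and 11, against 0 to 526 CPM in the other tissues (median 0.220 CPM). It had the largest margin of the 313, 7.97 ± 0.70 from adipose tissue (adjusted p = 7.63e-12). Muscle air 2 and 4 were the high libraries for it and air 3 and 11 the low ones, but none came near the other tissues.

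Myh2, the heavy chain of fast oxidative fibres, was at 51370 to 95880 CPM in muscle (median 77370) and had the highest mean CPM of any gene there. Elsewhere it reached 2.40 CPM in hypothalamus, 1.03 in lung and 0.0745 in liver, with a median of 1.13 CPM in adrenal, while adipose libraries held 113 to 9260 CPM. Its margin was 6.70 ± 0.58, from adipose tissue (adjusted p = 5.75e-12). Myh1 and Myh4, the near-identical fast heavy chains, were not analysed here, and no source used here says how reads shared between genes were counted, which leaves the Myh2 level uncertain. The embryonic chain Myh3 was at 55.1 to 109 CPM in muscle and at most 4.67 CPM elsewhere, and the perinatal chain Myh8 at 11.2 to 26.0 CPM in muscle and at most 2.23 CPM elsewhere. The remaining tested chains, Myh6, Myh7b, Myh14, Myh9, Myh10 and Myh11, did not pass. The non-muscle chain Myh9 was at 63.0 to 132 CPM in muscle and 29.4 to 594 CPM elsewhere, so those groups overlapped.

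Myosin light chains and myosin-binding proteins had 11 of 14 tested members higher, and 3 of the 14 passed the filter only through muscle. The slow light chain Myl3 was at 495 to 1359 CPM in muscle and at most 23.3 CPM elsewhere, a margin of 7.39 ± 0.39 (adjusted p = 9.95e-18). Mylpf, the regulatory light chain of fast fibres, was at 1517 to 7367 CPM in muscle and at most 473 CPM elsewhere, again in adipose tissue. Mybpc1, a myosin-binding protein of slow fibres, was at 6588 to 10830 CPM in muscle, and its nearest tissue was the adrenal gland at a margin of 5.00 ± 0.49.

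In the thin filament list, 17 of 18 tested members were higher, and 2 of the 18 passed the filter only through muscle. The median log2 difference over its tested members ran from 6.36 against adipose tissue to 9.00 against liver. There all tested genes had medians of -0.68 and 0.16. Acta1, skeletal alpha-actin, was at 14720 to 26250 CPM in muscle (median 21520). Its highest values elsewhere were 2156 CPM in adipose tissue, 3.06 in hypothalamus, 1.84 in adrenal, 1.81 in lung and 0.394 in liver, and the margin was 7.04 ± 0.59. Nebulin (Neb), which spans the thin filament, was at 5170 to 9602 CPM in muscle and at most 572 CPM elsewhere. Nrap, a nebulin-related anchoring protein, had the second-largest margin of the 313, 7.75 ± 0.61 (adjusted p = 5.06e-13). Tnnt1, troponin T of slow fibres, was at 422 to 2315 CPM in muscle and at most 31.1 CPM elsewhere.

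The Z-disc, which anchors the thin filaments, together with titin-associated and M-band proteins had 31 of 35 tested members higher. Of the 35, 6 passed the filter only through muscle. Xirp2, an actin-binding repeat protein, was at 2459 to 3570 CPM in muscle and at most 181 CPM elsewhere, a margin of 7.36 ± 0.67. Actn2, a sarcomeric alpha-actinin, was at 1494 to 3680 CPM in muscle and its nearest tissue was the adrenal gland (7.11 ± 0.73). Fhl1, a LIM-domain protein, had the smallest margin named in this list, 2.60 ± 0.33 from lung. The list also held desmin (Des), an intermediate filament of all muscle types, at 1441 to 2458 CPM in muscle and at most 154 CPM elsewhere.

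Excitation-contraction coupling had 27 of 39 tested members higher, and 7 of the 39 passed the filter only through muscle. The calcium release channel Ryr1 was at 3485 to 10130 CPM in muscle and at most 533 CPM elsewhere (7.00 ± 0.53). Its voltage sensor Cacna1s was at 988 to 2482 CPM in muscle and at most 118 CPM elsewhere (7.02 ± 0.49). Triadin (Trdn), a protein of the release site, and calsequestrin (Casq1), which holds calcium there, had margins of 7.30 ± 0.60 and 7.18 ± 0.54. The calcium pumps of both fibre types were higher, Atp2a1 at 6.88 ± 0.55 and the slow-fibre and general form Atp2a2 at 2.36 ± 0.26, with 2214 to 10460 CPM in muscle against 202 to 1166 CPM elsewhere. All 6 muscle libraries lay above the 28 others for each gene named here.

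**Figure D2:**
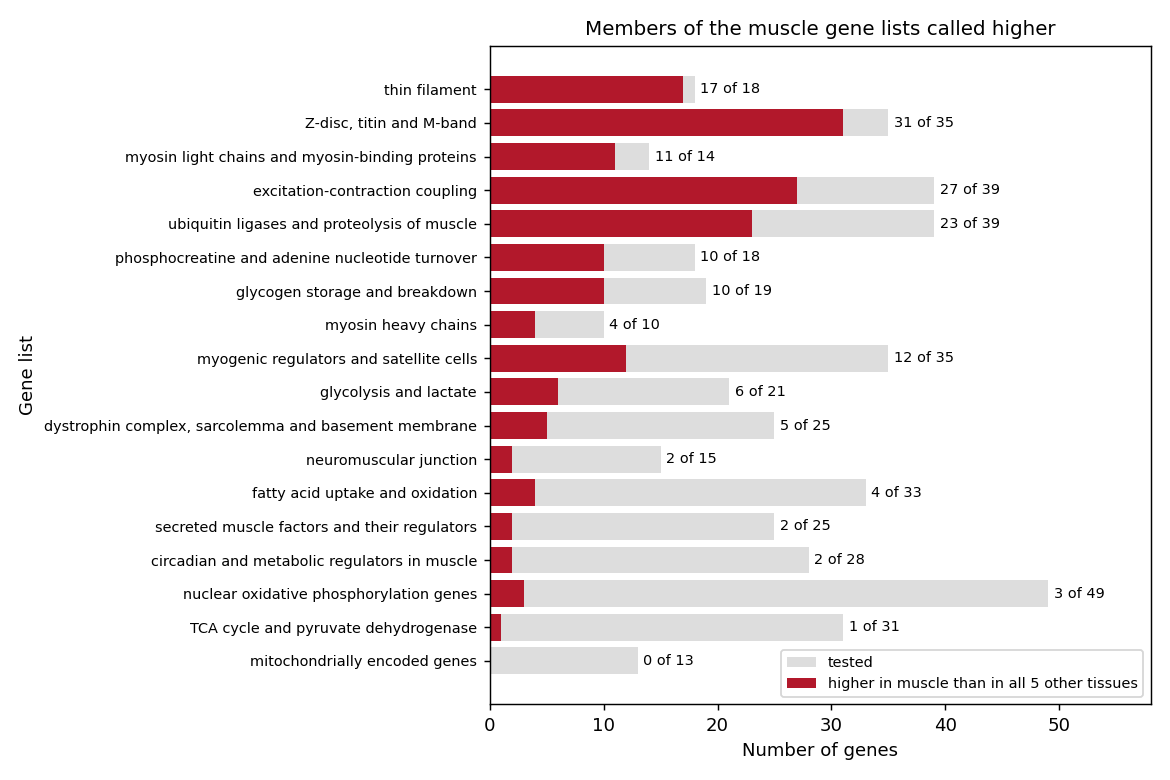
Number of tested genes (full bar) and of genes called higher in muscle than in all 5 other tissues (red) in 18 gene lists on muscle function. Thin filament genes passed in 17 of 18 cases, nuclear oxidative phosphorylation genes in 3 of 49 and mitochondrially encoded genes in 0 of 13.

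Of 18 tested genes of phosphocreatine and adenine nucleotide turnover, 10 were higher, and 1 of the 18 passed the filter only through muscle. Muscle creatine kinase Ckm was at 6490 to 14500 CPM in muscle, against at most 1310 CPM in adipose tissue and 10.3 CPM in lung (6.88 ± 0.72, adjusted p = 3.88e-10). Its mitochondrial partner Ckmt2 was at 967 to 2342 CPM in muscle and at most 97.9 CPM elsewhere. The oxygen store myoglobin (Mb) was at 518 to 1771 CPM in muscle and at most 58.2 CPM elsewhere. AMP deaminase Ampd1 was at 603 to 855 CPM in muscle and at most 73.1 CPM elsewhere.

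Glycogen storage and breakdown had 10 of 19 tested genes higher. Glycogen phosphorylase of muscle, Pygm, was at 5404 to 10280 CPM in muscle and at most 854 CPM elsewhere, a margin of 6.25 ± 0.51 from hypothalamus. Ppp1r3a, which targets a phosphatase to glycogen in muscle, was at 621 to 1322 CPM in muscle and at most 38.8 CPM elsewhere. Prkag3, a subunit of the energy sensor AMPK, was at 79.2 to 163 CPM in muscle and at most 22.0 CPM elsewhere. Glycogen synthase Gys1 passed at a margin of 2.07 ± 0.12.

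Glycolysis and lactate had 6 of 21 tested genes higher, namely Eno3, Pgam2, Slc16a3, Fbp2, Aldoa and Pfkm. Enolase Eno3 was at 2242 to 4616 CPM in muscle and at most 413 CPM elsewhere. The lactate exporter Slc16a3 was at 25.5 to 63.9 CPM in muscle and at most 8.97 CPM elsewhere. Ldha, lactate dehydrogenase A, did not pass, at 410 to 1136 CPM in muscle and 102 to 592 CPM elsewhere, with a margin of 0.67 ± 0.22 from liver. Gapdh itself was not tested, at a mean of 2.08 CPM in muscle beside 33.9 CPM for Gapdh-ps2, and reads of such multi-copy genes may be shared between entries.

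Fatty acid uptake and oxidation had 4 of 33 tested genes higher, namely Fabp3, Cpt1b, Pdk4 and Acacb. Fabp3, a fatty acid carrier of heart and muscle, was at 39.4 to 220 CPM in muscle and at most 13.5 CPM elsewhere. Cpt1b, the muscle gate for fatty acids into mitochondria, was at 252 to 441 CPM in muscle and at most 105 CPM elsewhere (2.53 ± 0.50, adjusted p = 3.66e-05). Acacb, which makes the inhibitor of that gate, passed at 2.09 ± 0.21 but was at 1.80 under TMM scaling and so no longer called.

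Mitochondrially encoded genes had higher levels in muscle than in most other tissues without reaching the 4-fold threshold. With limma 0 of the 13 tested were called higher, as with edgeR and DESeq2, and at an unadjusted p under 0.05 the count was again 0. At any size, 6 of the 13 passed that p against all 5 tissues, beside 5.1% of all tested genes. Their median log2 difference was 2.22 against lung, 1.34 against liver, 0.52 against adrenal, 1.27 against hypothalamus and 1.72 against adipose tissue, where all tested genes had medians of -0.95, 0.16, -0.74, -0.85 and -0.68. Mt-co1, a subunit of cytochrome oxidase, was at 26400 to 47150 CPM in muscle and 6157 to 34780 CPM elsewhere, and its difference from adrenal was 0.18 ± 0.17 (adjusted p = 0.331). Mt-nd5, of complex I, was the clearest of those named, with 9035 to 16040 CPM in muscle, 1217 to 5296 CPM elsewhere and a margin of 1.59 ± 0.20. Of 49 tested nuclear genes of oxidative phosphorylation, 18 were higher than in all 5 tissues at an adjusted p under 0.05 and any size, beside 5.02% of all tested genes. The threshold was reached by 3 (6.12%, beside 2.01% of all tested genes), namely Cox6a2, Cycs and Cox8b. Called lower was 1 (2.04%, beside 0.456%), Cox6a1. Of the 49, 2 passed the filter only through muscle. Of 31 tested genes of the TCA cycle and its entry, 16 were higher than in all 5 tissues at that adjusted p and any size. The threshold was reached by 1 (3.23%, beside 2.01% of all tested genes), Pdk4, which inhibits pyruvate dehydrogenase.

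Muscle forms were set beside related forms in 52 gene pairs. Of the muscle forms tested, 32 of 38 were higher than in all 5 tissues. Of the related forms tested, 4 of 51 were lower, namely Pgam1, Pfkl, Cox6a1 and Slc25a5, and 1 was higher, Atp2a2. In 44 of the 52 pairs the log2 ratio of the muscle form to the related form was higher in all 6 muscle libraries than in every other library. A ratio of forms within a library does not depend on how the library was scaled, apart from the pseudocount.

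For phosphofructokinase the mean log2 ratio Pfkm over Pfkl was 10.55 in muscle, 1.32 in lung, 0.13 in liver, 0.17 in adrenal, 3.32 in hypothalamus and 2.37 in adipose tissue. Pfkm was at 3208 to 6488 CPM in muscle and 10.4 to 1233 CPM elsewhere, and Pfkl at 1.51 to 2.43 CPM in muscle and 10.2 to 133 CPM elsewhere. For phosphoglycerate mutase the log2 ratio Pgam2 over Pgam1 was 4.15 in muscle and between -8.24 and -4.66 in the others. For cytochrome oxidase subunit 6A the log2 ratio Cox6a2 over Cox6a1 was 3.04 in muscle and -7.19 to -4.89 elsewhere. The ADP/ATP carriers had a log2 ratio of Slc25a4 over Slc25a5 of 5.97 in muscle and -5.92 to 0.36 elsewhere. In these 4 pairs the muscle form was called higher and the related form lower, but under TMM scaling only Pfkl of the related forms was still called lower by this rule. Reads of Cox6a1, Slc25a5 and Pgam1 may be shared with near-identical copies, so their counts are uncertain.

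In the translation machinery, Rpl3l, a muscle form of a ribosomal protein, was at 72.4 to 131 CPM in muscle and at most 10.9 CPM elsewhere, and its log2 ratio to Rpl3 was 1.11 in muscle and -8.57 to -7.18 in the others. Eef1a2, the muscle and neuron form of an elongation factor, was at 209 to 427 CPM in muscle and up to 194 CPM in the other tissues and was not called (1.48 ± 0.46 from hypothalamus). Muscle libraries overlapped others in the ratios Ldha over Ldhb, Atp2a1 over Atp2a2, Ryr1 over Ryr2, Cox7a1 over Cox7a2, Slc2a4 over Slc2a1, Itga7 over Itga6 and Cav3 over Cav1, among others. For the insulin-responsive glucose carrier Slc2a4 the nearest tissue was adipose, at 0.50 ± 0.38 (adjusted p = 0.24).

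**Figure D3:**
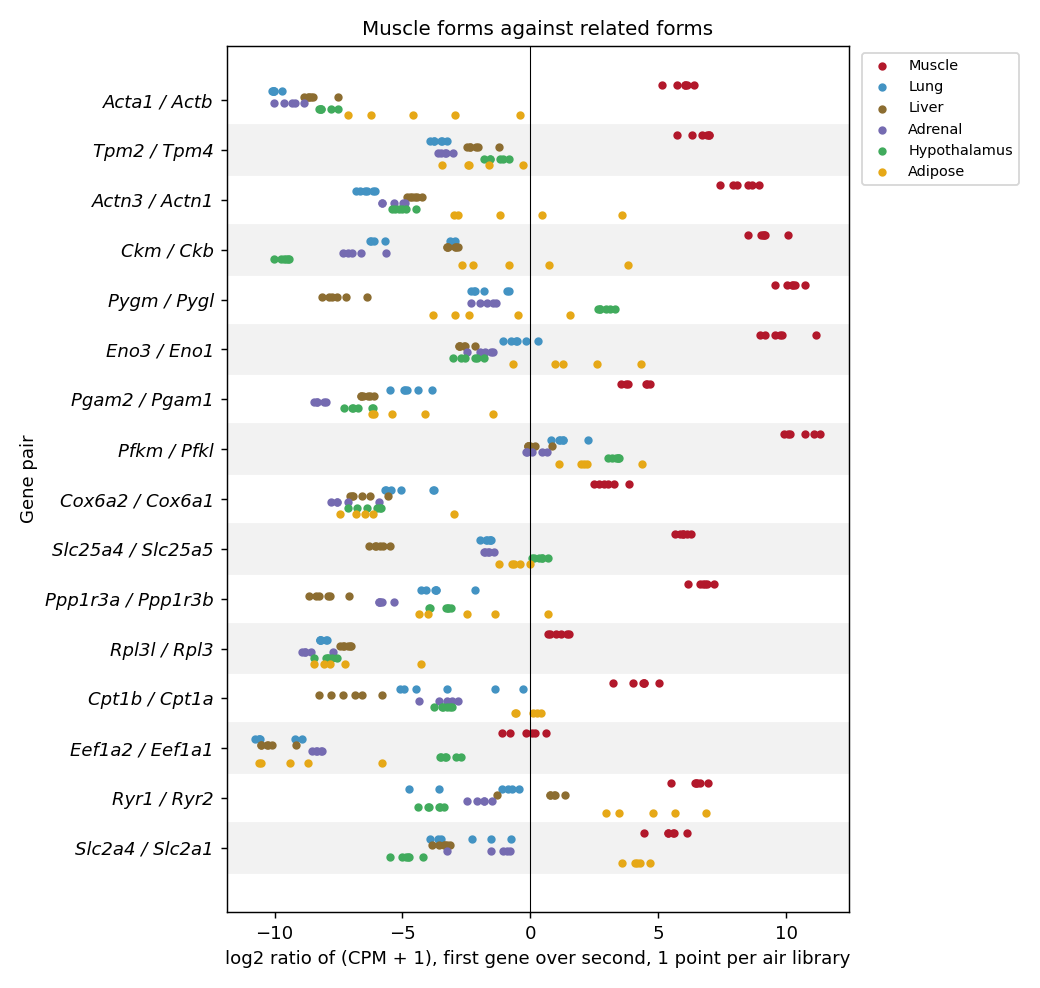
Log2 ratio of (CPM + 1) of a muscle form over a related form for 16 of the 52 gene pairs, 1 point per air library, with muscle drawn uppermost. In the pairs Ryr1 over Ryr2 and Slc2a4 over Slc2a1 the muscle points meet those of adipose tissue, and in the other 14 they stand to the right of all other libraries.

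Regulators of muscle identity had 12 of 35 tested members higher, and 6 of the 35 passed the filter only through muscle. Myf6, a myogenic factor of mature fibres, was at 45.8 to 123 CPM in muscle and at most 6.10 CPM elsewhere (5.14 ± 0.28, adjusted p = 2.35e-17). Myod1, the factor that commits cells to muscle, was at 8.29 to 16.8 CPM in muscle and at most 0.121 CPM elsewhere, and myogenin (Myog) at 4.94 to 9.89 CPM in muscle and at most 0.478 CPM elsewhere. Vgll2 and Tbx15, a transcriptional cofactor and a transcription factor of muscle, had margins of 5.09 ± 0.22 and 5.04 ± 0.34. Myf5, which marks satellite cells, was at 1.25 to 2.71 CPM in muscle and at most 0.165 CPM elsewhere and fell under the filter on low values.

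At the neuromuscular junction 2 of 15 tested genes were higher (13.3%, beside 2.01% of all tested genes), both subunits of the acetylcholine receptor. Of the 15, 1 passed the filter only through muscle. Chrnd was at 7.01 to 20.7 CPM in muscle and at most 0.362 CPM elsewhere, and Chrnb1 at 31.4 to 44.4 CPM in muscle and 0.393 to 4.43 CPM elsewhere. Under TMM scaling 5 of the 15 passed. The dystrophin complex and sarcolemma had 5 of 25 higher (9 under TMM), and 2 of the 25 passed the filter only through muscle. Among the 5 were Capn3, a calcium-dependent protease, and Ano5, both genes of limb-girdle muscular dystrophy in humans. Capn3 was at 268 to 376 CPM in muscle and at most 22.0 CPM elsewhere.

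Ubiquitin ligases and proteolysis genes of muscle had 23 of 39 tested members higher, and 7 of the 39 passed the filter only through muscle. Klhl31, a Kelch-family protein, was at 1319 to 2755 CPM in muscle and at most 119 CPM elsewhere, and Trim72, a membrane repair protein, at 313 to 435 CPM in muscle and at most 22.2 CPM elsewhere. In the list of secreted muscle factors and their regulators, 25 were tested, 1 of them through muscle alone. Of the 25, 2 were higher (8%, beside 2.01% of all tested genes). The first is myostatin (Mstn), a secreted factor that restrains muscle growth, at 21.5 to 69.2 CPM in muscle and at most 7.00 CPM elsewhere. The second is Actn3, the actinin of fast-fibre Z-discs, which is not secreted. Circadian and metabolic regulators had 2 of 28 higher (7.14%, beside 2.01% of all tested genes), the AMPK subunits Prkag3 and Prkab2.

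The 71 genes called lower included enzymes and carriers of lipid synthesis. Of 36 tested genes of cholesterol and fatty acid synthesis, 7 were lower (19.4%, beside 0.456% of all tested genes). They were Lss, Dhcr7, Insig1, Acly, Fasn, Elovl5 and Fads1. Their list had median log2 differences of -2.09 against lung, -2.58 against liver, -3.08 against adrenal, -2.57 against hypothalamus and -1.60 against adipose tissue. All tested genes had medians of -0.95, 0.16, -0.74, -0.85 and -0.68 in the same order. Under TMM scaling 2 of the 36 remained, Acly and Fads1. Acly, which makes cytosolic acetyl-CoA from citrate, was at 27.5 to 64.8 CPM in muscle and 123 to 1085 CPM elsewhere, a margin of -2.50 ± 0.23.

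Slc25a1, the mitochondrial citrate exporter that feeds this pathway, was at 1.44 to 3.83 CPM in muscle (median 2.46), against 34.4 to 78.0 CPM in lung, 44.97 to 70.8 CPM in hypothalamus and 116 to 187 CPM in liver, adrenal and adipose tissue. Its margin of -3.82 ± 0.16 (adjusted p = 6.8e-21) was the second largest on the lower side. Transketolase (Tkt), of the pentose phosphate pathway, was at 13.9 to 23.2 CPM in muscle and 134 to 597 CPM elsewhere (-3.14 ± 0.21). Fads1, a fatty acid desaturase, was at 10.1 to 31.2 CPM in muscle and 129.5 to 2321 CPM elsewhere, with the highest values in adrenal. Muscle libraries lay below every other library for all of these genes.

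Other genes called lower had roles in signalling, epithelia and detoxification. The receptor phosphatase Ptprf was at 3.70 to 10.4 CPM in muscle and 73.3 to 426 CPM elsewhere (-3.75 ± 0.21). Mal2, a membrane protein of epithelial transport, was at 0.0617 to 1.04 CPM in muscle, 558 to 774 CPM in lung and as low as 11.1 CPM in adrenal. Krt8, a keratin of simple epithelia, was at 0.0642 to 0.972 CPM in muscle and 4.07 to 293 CPM elsewhere. The growth factor receptor Fgfr2 was at 0.308 to 1.60 CPM in muscle and 7.13 to 308 CPM elsewhere. The detoxifying transferases Gsta1 and Gstm1 were lower by -3.00 ± 0.18 and -2.82 ± 0.27, and neither passed under TMM scaling. They were 2 of 34 tested antioxidant genes (5.88%, beside 0.456% of all tested genes). At an unadjusted p under 0.05 and any size, 20 of the 34 were lower in muscle than in all 5 tissues. The antioxidant list's median log2 differences ran from -2.52 against adrenal to -1.02 against hypothalamus, where all tested genes had -0.74 and -0.85. The lysosomal protease Ctss was the only 1 of 32 tested lysosome genes called lower, beside 0.456% of all tested genes. It was at 5.49 to 17.8 CPM in muscle and 29.9 to 192 CPM elsewhere. Ctss was not called under TMM scaling (-1.38) or without muscle air 4 (-1.99). At an unadjusted p under 0.05 and any size, 21 of the 32 lysosome genes were lower than in all 5 tissues. The lysosome list's median log2 differences ran from -2.04 against adipose tissue to -1.09 against hypothalamus, where all tested genes had -0.68 and -0.85. For neither list was the matching any-size share of all tested genes computed. These any-size counts therefore cannot be told apart from the lower levels of most genes in muscle under CPM scaling.

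Housekeeping lists gave no calls with limma, edgeR or DESeq2, namely 67 cytosolic ribosomal proteins, 36 spliceosome and RNA-binding genes, 38 genes of the translocon and early secretory pathway and 32 cell cycle genes. At an unadjusted p under 0.05 and the same fold rule the counts were again 0. At that p and any size, 26 of the 38 translocon genes were lower in muscle than in all 5 tissues. So were 11 of the 67 ribosomal, 3 of the 36 spliceosome and 5 of the 32 cell cycle genes. Neither the matching share of all tested genes nor these counts under TMM scaling were computed. The any-size counts therefore cannot be told apart from the lower levels of most genes in muscle under CPM scaling. The translocon list had median log2 differences of -1.35 against lung, -1.25 against liver, -1.48 against adrenal, -0.89 against hypothalamus and -1.55 against adipose tissue, beside -0.95, 0.16, -0.74, -0.85 and -0.68 over all tested genes.

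The largest lower margin belonged to albumin (Alb), the main plasma protein made by liver, at 0.185 to 4.17 CPM in muscle (median 1.43). It was at 69460 to 96150 CPM in liver, 17.9 to 1049 CPM in lung, 13.9 to 1595 CPM in adrenal, 10.7 to 828 CPM in hypothalamus and 135 to 402 CPM in adipose tissue, giving a margin of -5.32 ± 1.02 (adjusted p = 1.96e-05). Its spread within lung, adrenal and hypothalamus was wide. The hepatocyte markers had a lower sum in muscle than in the other tissues, as given above. Their median log2 difference against adipose tissue was only -0.25, and Apoa1 was at 0.159 to 0.483 CPM in adipose tissue. The part of liver RNA in the non-liver libraries was not tested. In 4 of the 71, among them Alb, Cyp2e1 and Ttpa, mean liver levels were at least 10 times those of each of the other 4 tissues. Cyp2e1, a liver monooxygenase, was the only lower gene whose groups overlapped, at 0.114 to 1.34 CPM in muscle and 0.888 to 6823 CPM elsewhere.

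**Figure D4:**
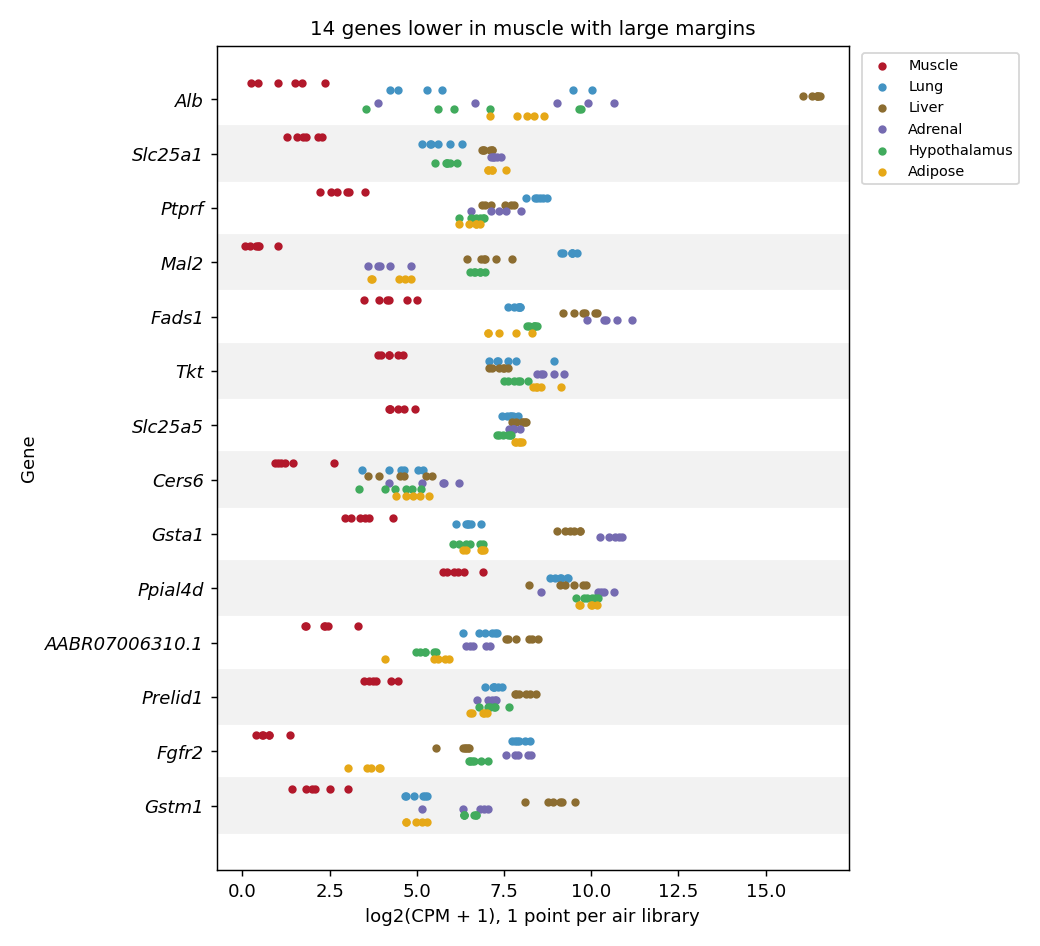
Of the 15 genes called lower in muscle with the largest margins, 14 are drawn, as log2(CPM + 1) in each air library, with muscle drawn uppermost within each gene. The muscle points lie left of all other points in each gene, and for Alb the points of lung, adrenal and hypothalamus are spread widely, from 10.7 to 1595 CPM.

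The number of genes called lower changed with the scaling, and also with the pseudocount and the model, as given below. TMM factors were 0.614 to 0.71 in muscle and 0.472 to 1.48 elsewhere, and the 10 most abundant genes held 20.0 to 25.1% of muscle reads, against 6.23 to 24.7% in other libraries. The 16 lower genes called under TMM included Alb, Mal2, Slc25a1, Ptprf, Fads1, Fgfr2, Tkt, Acly, Pfkl, AABR07043654.1, Krt8, Cers6, Ttpa, RGD1305587 and Prelid1. All 71 still had muscle below its nearest tissue under TMM, by margins of -4.49 to -0.92. Count models on recovered reads gave 117 lower genes with edgeR and 134 with DESeq2, of which 27 and 29 were among the 71, so the membership of the lower set outside those genes depended on the method.

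Against 1 tissue at a time, more genes passed. Muscle was higher than lung for 660 genes (4.24%) and lower for 3462 (22.3%), with 1272 and 1514 under TMM scaling. It was higher than liver for 1695 (10.9%) and lower for 1433 (9.21%), with 1609 and 1756 under TMM. It was higher than adrenal for 783 (5.03%) and lower for 2426 (15.6%), with 1358 and 1130 under TMM. It was higher than hypothalamus for 654 (4.2%) and lower for 3552 (22.8%), with 1376 and 2157 under TMM. It was higher than adipose tissue for 619 (3.98%) and lower for 2007 (12.9%), with 1026 and 780 under TMM. The median log2 difference of all tested genes was -0.95 against lung, 0.16 against liver, -0.74 against adrenal, -0.85 against hypothalamus and -0.68 against adipose tissue, and it lay between -0.08 and 0.04 under TMM. The balance of higher and lower calls moved with the scaling against each tissue.

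The 6 muscle libraries differed among themselves in genes of slow fibres. Tnnt1 was at 2113, 422, 2315, 689, 1110 and 431 CPM in air 2, 3, 4, 7, 9 and 11, and Atp2a2 at 9390, 2505, 10460, 4790, 4939 and 2214 CPM. Both were highest in air 4 and air 2, as was Myh7. Genes of fast fibres did not follow this order. Actn3 was at 7454, 8922, 3309, 4491, 5097 and 7804 CPM, lowest in air 4, and Myh2 was also lowest in air 4, at 51370 CPM. Pvalb, a calcium buffer of fast fibres, was at 535, 689, 205, 266, 580 and 726 CPM, again lowest in air 4.

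Matrix and stress genes set single libraries apart. The collagen-binding protein Fmod was at 186 CPM in air 7 and 3.64 to 28.4 CPM in the other 5, and Col11a1, a cartilage and tendon collagen, at 69.8 CPM in air 7 and 1.37 to 8.02 CPM in the others. Thbs4, a matrix protein of tendon and muscle, was called higher in muscle (2.70 ± 0.30 from adrenal), with 123 CPM in air 7 and 12.0 to 33.8 CPM in the others. Fibroblast and matrix markers summed to 19580 CPM in air 7 and 5506 to 14380 CPM in the other 5, and their part in the Thbs4 difference was not tested. The stress factor Atf3 was at 370 CPM in air 9 and 10.8 to 91.9 CPM in the others, and Ankrd1, a stretch-responsive protein, at 56.8 CPM in air 3 and 1.60 to 13.3 CPM in the others. None of Fmod, Col11a1, Atf3 and Ankrd1 was called higher or lower.

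**Figure D5:**
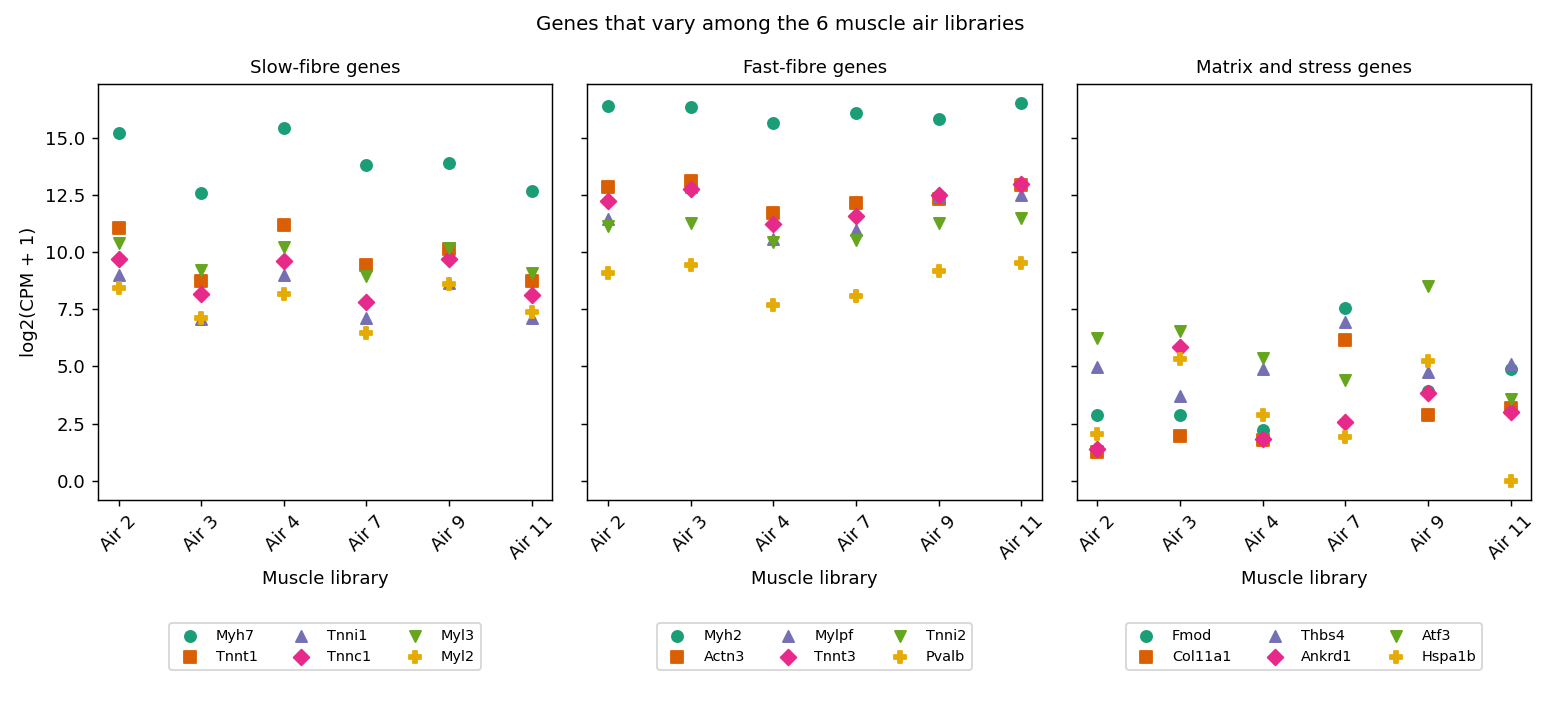
Levels, as log2(CPM + 1), of 6 slow-fibre, 6 fast-fibre and 6 matrix and stress genes in each of the 6 muscle air libraries. Slow-fibre genes were high in air 2 and 4, with Myh7 at 38430 and 44180 CPM, and Fmod and Col11a1 were high in air 7.

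The comparison was repeated in the ozone libraries, which the rule had not used. There 318 of 15429 tested genes were higher in muscle than in all 5 tissues (2.06%) and 267 were lower (1.73%). Of the 313 genes higher in air, 306 were tested and 271 were called again, 86.6% of the air calls and 85.2% of the ozone calls. Of the 71 lower in air, 67 were called again, 94.4% of the air calls and 25.1% of the ozone calls. Under TMM scaling of both sets, 393 higher and 13 lower calls were shared. Genes higher in air and not called in the ozone libraries included Fhl1, Cycs, Cfl2, Atp2a2 and Thbs4, and Myod1, Myog and Chrnd, which fell under the filter on low values there.

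Slow-fibre genes again varied widely among the ozone muscle libraries. Myh7 was at 275, 3678, 519.6, 11990 and 256 CPM in muscle ozone 13, 15, 16, 23 and 24, and Atp2a2 at 232, 1591, 286, 2687 and 222 CPM. Myh2 was at 125500 to 190800 CPM in the same libraries and the top 10 genes held 27.5 to 34.4% of their reads. The number of lost calls was not compared between exposures by a test, and a call lost in the ozone libraries is not shown to be a response to ozone.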

How the data were processed

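Messenger RNA was sequenced from 6 tissues of Wistar-Kyoto rats. Per the labels' protocols, RNA was isolated with Qiagen kits from muscle (fibrous tissue kit), adipose tissue (lipid tissue kit), lung and liver, whereas a Zymo kit served for hypothalamus and adrenal, with an integrity minimum of 7. Messenger RNA selection and library preparation were automated, and a NextSeq 500 was used. The authors deposited 1 table per tissue of normalised gene values, a signal that is a gene's reads over 1 factor per library. Partek, DESeq2 and rn6 are listed, without versions or roles, per the submitters' processing notes. Aligner, gene annotation, counting and strand setting were not given in the sources used here. Values of paralogs and overlapping genes are therefore uncertain. Within every library the values above 0 were whole multiples of 1 step within a tolerance of 0.01 (100% of values), so the reads could be recovered. Adrenal air 7 and muscle ozone 17, of the 70 libraries labelled, were not analysed here.

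Tables were joined on gene symbol. Of 19465 entries, 24 with a date as symbol were left out, and 19441 were kept. Each library was scaled to a sum of 1000000 (CPM). Genes with a mean of at least 1 CPM over the 34 air libraries (15554) were tested on log2(CPM + 1) with limma 3.58.1 in R 4.3.3, with a mean-variance trend and robust moderation, in 1 fit over 6 tissues with 5 contrasts, Benjamini-Hochberg adjusted over all genes tested in each. The log2(CPM + 1) scale understates differences of low genes. The median standard error of the difference from the nearest tissue was 0.18. Levels are lowest, median and highest over libraries. The method was tested on simulated data in which all tissues shared a profile, apart from genes changed in muscle. That test cannot show how calls hold where tissues differ in make-up, as here. Alternatives used edgeR 4.0.16 and DESeq2 1.42.0 on recovered reads, TMM and DESeq2 size factors, other pseudocounts, filters and thresholds, array weights, the library number as a block and each library left out. The library numbers gave no sign of pairing across tissues, but this check cannot show that the libraries came from separate rats. No pair of libraries in a group was a copy of another, since chi-square over degrees of freedom was at least 33.4 in muscle and 10.4 in any tissue, over genes with at least 20 reads.

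The muscle group, the 43 gene lists and the 52 form pairs were chosen from general knowledge with earlier results of these data known. Lists share members, so their counts are not separate. Named genes are the 15 with the largest margin in each direction, the most abundant genes in muscle, the members of each list with the largest margins among those called, the form pairs, and the genes that vary most among the muscle libraries. Sspn, RGD1306148, Synm, Ubac1, Clip4, Tbx1, Spg21, Erp29, Smim14, Fah and Mx2 mark the threshold, and Lss, Dhcr7, Fasn and others named only in lists were named after their values were seen. Promoters are the 250 bases before the start in RefSeq's GRCr8 table, matched by symbol. A few genes that these rules name are not reported here.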

Additional observations from a re-analysis of the deposited data

Results flagged for a closer look

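In 73 sets of 5 or 6 libraries, 53 genes and 20 marker sums, 14 had 1 library far from the rest of its group by Dixon's test. Chance does so in about 1 of 20 groups, but 10 of the genes were chosen for their spread among the muscle libraries, so the number cannot be set against that rate.

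Muscle air 7 stood apart for 7 of them. It held 186 CPM of Fmod, against 3.64 to 28.4 CPM in the other 5, and 69.8 CPM of Col11a1, against 1.37 to 8.02 CPM, both genes of fibrous matrix. It also held the most of 4 genes called lower in muscle, with 5.21 CPM of Cers6 (others 0.915 to 1.73), 1.6 CPM of Fgfr2 (0.308 to 0.706), 1.04 CPM of Mal2 (0.0617 to 0.385) and 8.89 CPM of AABR07006310.1 (2.45 to 4.46). Glia and Schwann cell markers summed to 820 CPM in this library and to 498 to 595 CPM in the other 5.

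Muscle air 3 held 56.8 CPM of Ankrd1 (others 1.60 to 13.3) and 59.6 CPM of AC133270.1 (0 to 15.3). Muscle air 9 held 370 CPM of the stress factor Atf3 (10.8 to 91.9). Muscle air 4 held 901 CPM of Txlnb (788 to 814), and its adipocyte markers summed to 452 CPM, below the 578 to 625 CPM of the others.

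Among the other tissues, skeletal fibre markers summed to 18900 CPM in adipose air 2, against 244 to 3240 CPM in the other 4 adipose libraries, and to 10.2 CPM in liver air 1, against 4.14 to 5.96 CPM in the other liver libraries.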

How the results depend on the processing

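The balance of higher and lower calls against adrenal, adipose tissue and liver turned under TMM, as did the sign of the median difference of all genes against hypothalamus (-0.85, and 0.04 under TMM), and no called named gene reversed its difference from its nearest tissue under any alternative run. The count of higher genes (313) was 488 and 201 at log2 thresholds of 1 and 3 and 480 with edgeR, and it stayed within 1.5 times under the other alternatives, from 242 when limma tested against the threshold itself to 469 with DESeq2. The count of lower genes (71) was 220 and 25 with pseudocounts of 0.1 and 5, 16 under TMM, 18 under DESeq2 size factors, 171 with deposited values unscaled, 47 without the top 50 genes of each tissue, 25 when tested against the threshold itself, 784 and 9 at thresholds of 1 and 3, 117 with edgeR and 134 with DESeq2. Alternatives chosen after seeing the data gave 166 lower genes without adipose tissue and 198 without liver, where fewer tissues had to be passed, with 353 and 321 higher. Leaving out 1 library gave 310 to 315 higher and 67 to 80 lower genes. Against single tissues under DESeq2 size factors, higher and lower calls numbered 1256 and 1469 for lung, 1359 and 1077 for adrenal, 1213 and 2327 for hypothalamus and 1040 and 727 for adipose tissue. TMM gave 1272 and 1514, 1358 and 1130, 1376 and 2157, and 1026 and 780 in the same order. Unscaled values gave 2696 higher than in liver, 1302 than in adrenal, 1005 than in hypothalamus and 3173 lower than in adipose tissue, and 996 were higher than in hypothalamus without the top 50 genes. With edgeR 1693, 1764, 1829 and 1416 were higher than in lung, adrenal, hypothalamus and adipose tissue and 2393 lower than in liver. With DESeq2 these were 1696, 1794, 1598, 1474 and 2310, and 1314 were lower than in adipose tissue. The cause of these shifts was not tested. Of the air calls repeated in the ozone libraries, 13 lower ones were repeated under TMM, where 16 were called in air. With the library number as a replicate block, 315 genes were higher and 78 lower, with 308 of the 313 and 66 of the 71 shared. The numbers gave no sign of pairing: 45 same-numbered pairs across tissues correlated from -0.37 to 0.357 (median -0.0243), 14 of them above 0.1, and the same number correlated best in 11 of 90 cases. Over the called named genes, 3562 of 3570 values with 1 library left out and 2031 of 2133 others kept the difference from the same nearest tissue past the threshold, which is not the call against all 5. Depth limits genes near 1 CPM.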

Other observations

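Markers of cells other than fibres were measured in muscle too. Macrophage and neutrophil markers summed to 137 to 327 CPM in muscle, against 10080 to 16330 CPM in lung, 1405 to 2395 CPM in adipose tissue and 228 to 366 CPM in hypothalamus. Endothelial markers summed to 819 to 1049 CPM in muscle, against 6363 to 8987 CPM in lung and 235 to 558 CPM in liver. Neuron markers summed to 12.3 to 24.1 CPM in muscle, against 7309 to 9164 CPM in hypothalamus and 4.84 to 8.94 CPM in liver. Lung epithelial markers summed to 22.7 to 30.7 CPM in muscle, against 23460 to 32700 CPM in lung and 84.7 to 1124 CPM in the remaining tissues. Col1a1, a collagen of fibroblasts, was at 1552 to 8291 CPM in muscle, against 1894 to 3688 CPM in adipose tissue and 319 to 925 CPM in lung. Sbk2, a kinase on the cardiac list, was the only 1 of its 14 tested members called higher, at 56.0 to 109 CPM in muscle and at most 2.02 CPM elsewhere. Of the 14, 1 passed the filter on low values only through muscle. These genes were read as levels of bulk tissue, and no test of cell numbers was made.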
